A study of Mus musculus with 4 samples.

Results

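The genes described here encode the proteins of the mouse mitochondrial ribosome that carry an Mrps or Mrpl symbol. They were taken from the table of islet expression values as the RefSeq coding transcripts whose symbol begins with Mrps or Mrpl followed by a digit, and where a symbol had several rows the row with the highest mean over the 4 libraries was kept. This gave 77 genes from 88 rows, out of 20614 coding genes in the table. The rule used names and the mean level, and no difference between the groups.

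The study sequenced total RNA of isolated pancreatic islets held at low or high ambient glucose, 2 libraries at 2.8 mM glucose and 2 at 16.8 mM glucose. Islets came from wild type C57bl6 males of 3 months, were pooled, spent a night in RPMI medium with 11 mM glucose and were then kept at 2.8 mM glucose for 2 h before the stimulation. The series design gives 12 h at either concentration, while the treatment label of the 2.8 mM libraries gives 2 h and that of the 16.8 mM libraries gives 12 h. The methods of the study also give 12 h for both groups after the 2 h at 2.8 mM, and the groups are read here in that way, while the label of the 2.8 mM libraries stays at odds with it. Because all islets came from a single pool, the p-values measure the spread between libraries and not between animals.

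Mitochondria keep a small genome of their own, which encodes a handful of respiratory chain and ATP synthase subunits together with the RNAs needed to translate them. All proteins of the ribosome that translates these messages are encoded in the nucleus, made in the cytosol and imported. The small subunit binds the message and decodes it, and the large subunit joins the amino acids and releases the chain through an exit tunnel near the inner membrane. In beta cells the respiratory chain carries the glucose signal, since the ATP it drives closes the potassium channels that hold back insulin release. The 77 genes were divided into 27 of the small subunit and 50 of the large subunit by the place of their proteins in the assembled particle. *Mrps30* and *Mrps18a* thus count with the large subunit, although their symbols name the other. *Mrps36* was kept with the small subunit by its symbol alone, since its protein has been placed in the oxoglutarate dehydrogenase complex. A bacterial ribosome has a counterpart for 46 of the 77 proteins, and 31, *Mrps36* included, were counted as particular to mitochondria. *Mrps18a* and *Mrps18b* are among the 31 although their proteins are relatives of a bacterial one, and *Mrps18c* is among the 46.

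The stretches before the transcription start of a few of these genes are shown because their transcripts changed most in either direction on the log2 scale of the test or because a pair of them shares its start region. They are the 150 bases before the RefSeq start in build GRCm38.p6, read on the strand of the gene, with matches to the motifs described next in capitals. On the log2(RPKM + 0.5) scale *Mrps26* had the largest decrease, followed by *Mrps2* and *Mrpl12*, whereas as a ratio of the group means *Mrps5* fell furthest. *Mrpl33* was the single gene past the threshold in the other direction. The stretches lie at chr2:130563607-130563756 for *Mrps26*, chr2:28467916-28468065 for *Mrps2*, chr11:120484487-120484636 for *Mrpl12* and chr5:31613801-31613950 for *Mrpl33*, each on the plus strand. The last sequence is the whole of the 41 bases between the starts of *Mrpl46* and *Mrps11*, at chr7:78783090-78783130, read in the direction of *Mrps11*.
Mrps26: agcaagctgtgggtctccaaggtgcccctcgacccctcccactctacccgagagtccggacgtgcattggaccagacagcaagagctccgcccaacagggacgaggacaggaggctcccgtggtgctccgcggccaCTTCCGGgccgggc
Mrps2: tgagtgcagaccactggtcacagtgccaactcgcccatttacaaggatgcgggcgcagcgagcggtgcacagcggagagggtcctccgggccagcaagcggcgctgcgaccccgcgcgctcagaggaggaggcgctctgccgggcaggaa
Mrpl12: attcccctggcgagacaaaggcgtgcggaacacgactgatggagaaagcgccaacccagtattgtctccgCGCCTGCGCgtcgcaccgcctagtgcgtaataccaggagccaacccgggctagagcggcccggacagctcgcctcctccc
Mrpl33: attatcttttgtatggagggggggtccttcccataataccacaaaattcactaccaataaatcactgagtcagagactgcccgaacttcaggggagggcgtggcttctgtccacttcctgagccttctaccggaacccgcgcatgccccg
Mrpl46-Mrps11: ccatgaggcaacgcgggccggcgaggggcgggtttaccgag

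The windows of RefSeq from 250 bases before to 50 bases after the start were searched on both strands for GCGCANGCG, the letters bound by NRF1, for CCGGAAG, an ETS motif bound by GABPA, for AAGATGGC, bound by YY1, and for the E-box CACGTG, bound among others by MYC and ChREBP. No motif contains another. Matches in these windows that do not lie wholly within the stretches shown above are not in capitals there. They are 2 of the NRF1 letters for *Mrps26*, 1 of the ETS letters for *Mrpl33* and 1 of the YY1 letters for *Mrps11*. The table held 74 windows for 68 of the 77 genes. The ETS letters were present in 25 of the 74 windows, or 33.8%, against 20.9% of the 5725 windows of coding genes averaging 1 RPKM or more and 8.86% of all 32851 windows. The YY1 letters were present in 16.2% of the 74 windows, against 5.24% of those of coding genes at that level and 2.75% of all. The NRF1 letters were present in 21.6%, against 16.0% and 6.25%, and the E-box in 9.46%, against 11.2% and 7.15%. Several overlapping windows of *Mrpl2* hold the E-box. Counted by gene it was present in 5 of 68, or 7.35%, against 13.4% and 8.09%. Among the genes past the threshold towards lower values, 14 windows of 13 genes held the ETS letters in 5 windows, the NRF1 letters in 4, the YY1 letters in 2 and the E-box in 0. The 43 windows of the tested genes not past the threshold held them in 15, 9, 7 and 7 windows. The 7 windows with the E-box belong to 5 of these 41 genes. These shares describe letters in a window and were not tested.

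Expression was deposited as RPKM, read numbers scaled to length in kilobases and to the depth of the library. Of the low values checked, 79.2% to 82.4% came within 0.1 of a whole number of reads when multiplied by the genomic span, introns and exons together, against 17.7% to 19.7% with the exons alone. From these steps the depth came to between 50780000 and 60660000 reads a library. Depth was chosen as the value that brought the levels over the span nearest to whole numbers. The share with the exons was taken at that same depth and not at one chosen for the exons, so the shares are not an even comparison. A gene with long introns therefore has a low deposited value. The methods describe counts of reads aligning to RefSeq exons for the alpha and beta cell libraries and do not describe the islet libraries apart. The whole numbers give the length used for scaling and not where the counted reads lie, so whether reads in introns, or those of another gene inside the span, were counted was not tested. For each of the 77 genes a library held between 206 and 5280 reads, with a median of 952.

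Of the 77 genes, 61 averaged 1 RPKM or more and were tested with limma on log2(RPKM + 0.5) together with all 7867 transcripts at that level. Of the 61, *Mrps5* and *Mrpl14* reached the minimum only through their level at 2.8 mM, their mean at 16.8 mM being under 1 RPKM. At 16.8 mM glucose 15 of the 61 were lower and 1 was higher at an adjusted p under 0.05. Among all tested transcripts 22.8% were lower and 10.7% higher by the same rule, so the share of mitochondrial ribosomal protein genes that fell, 24.6%, was near the background and is not a result about these genes. The share that rose was 1.64%. The median log2 difference of the 61 genes was -0.18 and that of all tested transcripts -0.11. Scaling the libraries to a common median moved the median of all transcripts to -0.03, and the counts to 21 lower and 6 higher of the 61, against 26.7% and 21.1% of all transcripts. The 2 groups of libraries did not overlap for 34 of the 61 genes towards lower values and for 4 towards higher values, against 48.3% and 22.2% of all tested transcripts. Without replicate 2 at 16.8 mM the number lower was 2, and without replicate 1 at 2.8 mM it was 5. Without replicate 2 at 2.8 mM the number higher was 0.

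**Figure D1:**
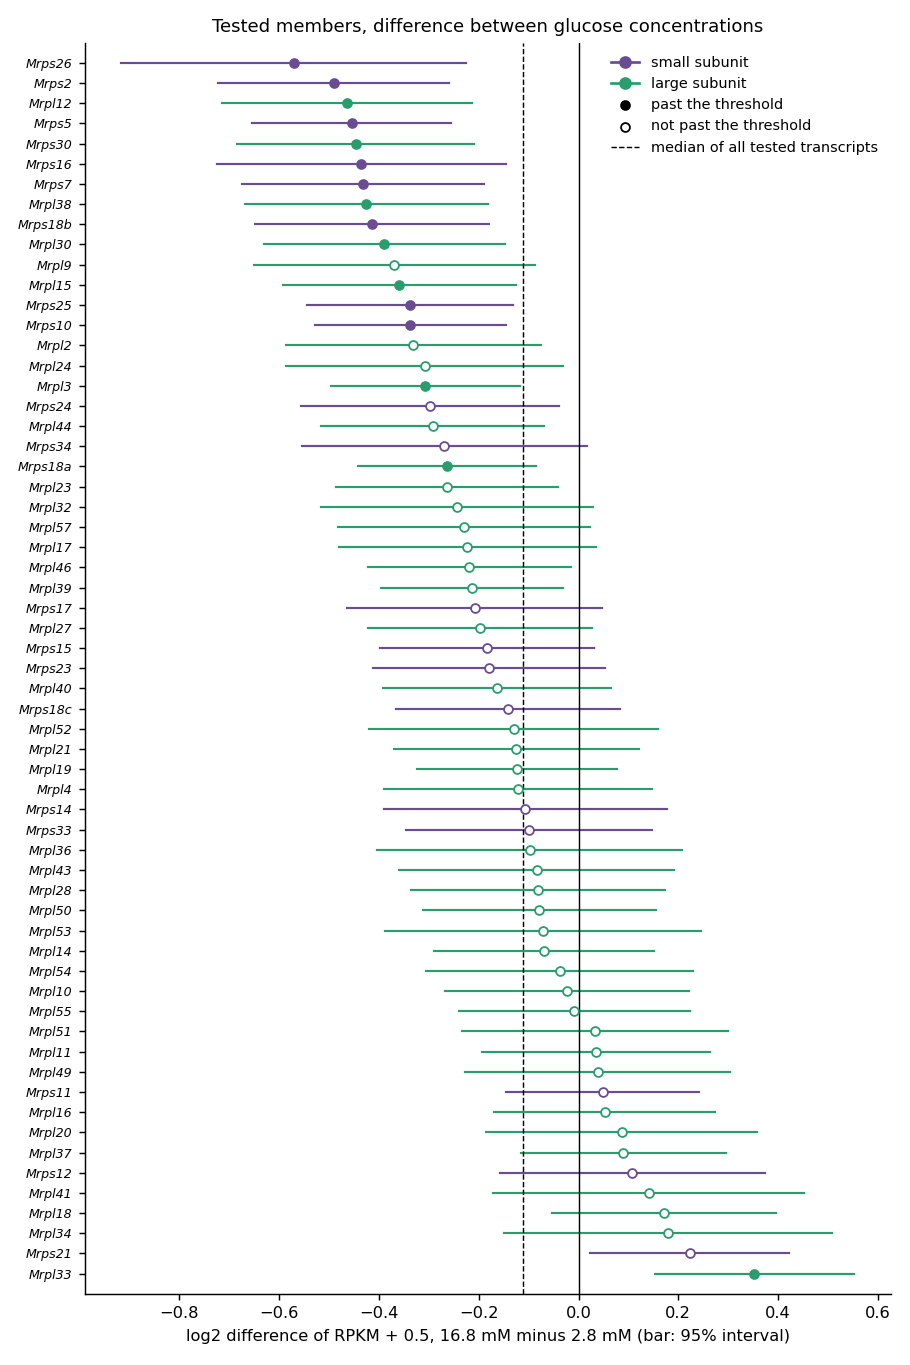
Log2 difference of RPKM + 0.5 between 16.8 mM and 2.8 mM glucose for each of the 61 tested genes, with its 95% interval. Colours mark the subunit, filled points the 16 genes past the threshold, the solid line 0 and the dashed line the median of all tested transcripts (-0.11). The points run from -0.57 for Mrps26 to 0.35 for Mrpl33, and 48 of the 61 lie below 0.

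Several genes of the small subunit were among the largest decreases. *Mrps26*, a protein of the small subunit without a bacterial counterpart (mm9 chr2:130389478-130394431, 4 exons), had 13.1 and 11.1 RPKM at 2.8 mM and 8.83 and 7.12 RPKM at 16.8 mM glucose. *Mrps2*, at the junction of the head and body of the small subunit (chr2:28323586-28326698), had 6.44 and 6.22 RPKM at 2.8 mM and 4.44 and 4.28 RPKM at 16.8 mM. *Mrps5*, near the entry site of the message (chr2:127412958-127432565), had 1.46 and 1.36 RPKM at 2.8 mM and 0.959 and 0.831 RPKM at 16.8 mM. In all 3 genes both libraries at 16.8 mM lay below both at 2.8 mM. The log2 differences were -0.57 ± 0.15 (SE, adjusted p = 0.0243), -0.49 ± 0.10 (adjusted p = 0.0101) and -0.46 ± 0.08 (adjusted p = 0.0077). The mean at 16.8 mM was 66.1%, 68.9% and 63.4% of that at 2.8 mM. The means of *Mrps5* were 1.41 RPKM at 2.8 mM and 0.895 RPKM at 16.8 mM, so it entered the test only through the group where it was high, and it was not tested where every library had to reach 1 RPKM. In voom, limma's method for read numbers, run on the reads recovered from the values with a minimum that *Mrps5* met in every library, its log2 difference was -0.66 (adjusted p = 9.42e-05).

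*Mrps16*, which sits in the body of the small subunit, had 9.42 and 8.12 RPKM at 2.8 mM and 6.71 and 5.98 RPKM at 16.8 mM. *Mrps7*, which helps to organise the head of the small subunit, had 6.36 and 6.51 RPKM against 4.86 and 4.43 RPKM. In *Mrps7* the second library at 2.8 mM was slightly above the first, while in *Mrps16* the first library was above the second in either group. Their log2 differences were -0.44 ± 0.12 (SE, adjusted p = 0.0334) and -0.43 ± 0.10 (adjusted p = 0.0189). *Mrps10* and *Mrps25* also fell, by 0.34 each on the log2 scale (adjusted p = 0.0199 and 0.0251). In these 4 genes the mean at 16.8 mM was between 72.2% and 74.8% of that at 2.8 mM.

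*Mrps18a*, *Mrps18b* and *Mrps18c* encode 3 relatives of a single bacterial protein that occupy different places in the particle. *Mrps18b* had 5.63 and 5.29 RPKM at 2.8 mM and 4.1 and 3.84 RPKM at 16.8 mM, a log2 difference of -0.41 ± 0.10 (SE, adjusted p = 0.0197). *Mrps18a*, the form placed in the large subunit, had 1.38 and 1.3 RPKM against 1.03 and 1.03 RPKM and a difference of -0.26 ± 0.08 (adjusted p = 0.0353). *Mrps18c*, the form in the place of the bacterial protein, had 2.67 and 2.38 RPKM against 2.34 and 2.15 RPKM. Its 2 groups of libraries did not overlap either, but its difference of -0.14 ± 0.09 did not pass the test (adjusted p = 0.281, 95% interval -0.37 to 0.08). The call of *Mrps18a* was lost with scaling to a common median, quantile normalization, no variance trend and no minimum, and when any 1 of the 4 libraries was left out. Whether the 3 genes differ in their response was not tested.

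In the large subunit *Mrpl12*, the protein of the flexible stalk that recruits translation factors (chr11:120345927-120350379), had 5.75 and 5.23 RPKM at 2.8 mM and 4.04 and 3.65 RPKM at 16.8 mM. *Mrps30*, which despite its symbol belongs to the large subunit (chr13:119168917-119176059), had 2.69 and 2.44 RPKM against 1.9 and 1.6 RPKM. *Mrpl38*, a protein of the central protuberance, had 3.93 and 3.58 RPKM against 2.85 and 2.49 RPKM. Every library at 16.8 mM was below every library at 2.8 mM in these genes. The log2 differences were -0.46 ± 0.11 (SE, adjusted p = 0.0165), -0.45 ± 0.10 (adjusted p = 0.0157) and -0.43 ± 0.10 (adjusted p = 0.0203). *Mrpl30* had 4.16 and 3.59 RPKM at 2.8 mM and 2.89 and 2.78 RPKM at 16.8 mM (-0.39 ± 0.10, adjusted p = 0.0264). *Mrpl15* and *Mrpl3*, the latter a protein near the site of peptide bond formation, fell by 0.36 and 0.31 on the log2 scale (adjusted p = 0.0307 and 0.0263). *Mrpl9*, *Mrpl44* and *Mrpl2* missed the threshold narrowly, at adjusted p values of 0.0511, 0.0519 and 0.0534.

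*Mrpl33*, a small protein of the large subunit with a bacterial counterpart (chr5:31916312-31925017, 4 exons), was the single gene that rose. It had 1.74 and 1.58 RPKM at 2.8 mM and 2.28 and 2.23 RPKM at 16.8 mM glucose. Both libraries at high glucose were thus above both at low glucose, with a log2 difference of 0.35 ± 0.08 (SE, adjusted p = 0.0199) and a mean at 16.8 mM of 136% of that at 2.8 mM. The call was lost without replicate 2 at 2.8 mM. *Mrps21*, a small subunit protein, was the next in order, with 2.26 and 2.16 RPKM against 2.65 and 2.68 RPKM, and did not pass the test (0.22 ± 0.08, adjusted p = 0.0822). When the libraries were scaled to a common median *Mrps21*, *Mrpl18*, *Mrpl37*, *Mrps12* and *Mrpl16* passed as well, with *Mrpl33* at an adjusted p of 0.006. The same scaling turned the sign of 8 genes with small differences, *Mrpl10*, *Mrpl14*, *Mrpl28*, *Mrpl43*, *Mrpl50*, *Mrpl53*, *Mrpl54* and *Mrpl55*, from below to above 0.

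**Figure D2:**
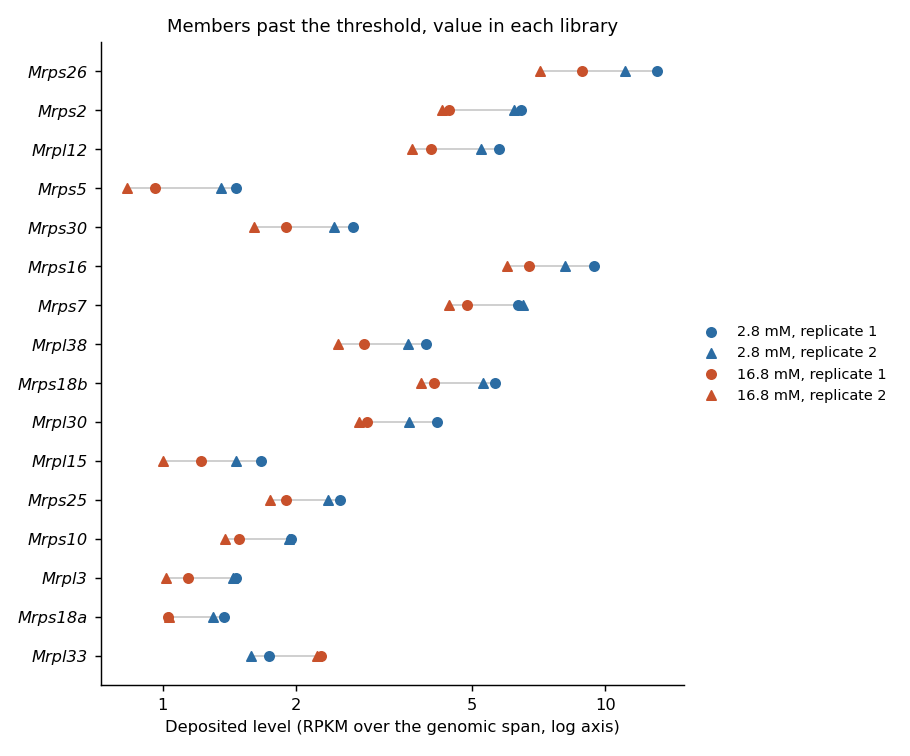
Deposited RPKM of the 16 genes past the threshold in each of the 4 libraries, on a log axis. Circles are replicate 1, triangles replicate 2, blue 2.8 mM and orange 16.8 mM glucose. Both orange points lie to the left of both blue points in 15 genes and to the right in Mrpl33.

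The calls depended on single libraries. Leaving out replicate 2 at 16.8 mM kept 3 of the 16 calls, those of *Mrps2*, *Mrps5* and *Mrpl33*, and leaving out replicate 1 at 2.8 mM kept 6, those of the same 3 genes with *Mrps26*, *Mrps30* and *Mrps7*. Without replicate 2 at 2.8 mM 12 calls were kept, and without replicate 1 at 16.8 mM 15. Replicate 1 was above replicate 2 for 75 of the 77 genes at 2.8 mM and for 68 at 16.8 mM. Among all 7867 tested transcripts this held for 6648 at 2.8 mM and 6738 at 16.8 mM. Over the tested genes the median log2 gap between the replicates was 0.13 at 2.8 mM and 0.11 at 16.8 mM, and over all tested transcripts 0.09 and 0.10. These gaps are of the same order as the median difference between the glucose concentrations.

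By subunit, 8 of the 19 tested genes of the small subunit fell and 0 rose, with a median log2 difference of -0.27, while 7 of the 42 tested genes of the large subunit fell and 1 rose, with a median of -0.12. The shares that fell were 42.1% and 16.7%, against 22.8% of all tested transcripts, whose median was -0.11, and 10.7% of those rose. No test of the difference between the subunits was run. By origin, 9 of 38 genes with a bacterial counterpart fell and 1 rose (median -0.16). Of 23 genes counted as particular to mitochondria 6 fell (median -0.18). The shares of 23.7% and 26.1% lie near that background. The 6 include *Mrps18a* and *Mrps18b*, whose proteins have a bacterial relative. Of the 5 proteins of the stalk and its base, *Mrpl12* fell, and *Mrpl10*, *Mrpl11*, *Mrpl53* and *Mrpl54* had log2 differences between -0.07 and 0.04 that did not pass the test. Of 7 tested genes of the central protuberance *Mrpl38* fell. None of the 4 tested genes that line the exit tunnel (*Mrpl17*, *Mrpl23*, *Mrpl24* and *Mrpl44*) passed the limma test at the adjusted threshold, where 3 of them had an unadjusted p under 0.05, and all 4 differences were below 0, with a median of -0.28. By voom 3 of the 7 genes of that group were past the threshold, all towards lower values, where 29.7% of all entries were lower by that test.

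Summed over the 77 genes the libraries at 2.8 mM held 1720 and 1540 RPM, the number of recovered reads scaled to the depth of the library alone, and those at 16.8 mM 1424 and 1310. The sum was thus lower in both libraries at high glucose. The 2 sums at 2.8 mM lay further apart than the lower of them and the higher sum at 16.8 mM. Over all tested transcripts the median log2 difference was also below 0, at -0.11, and 48.3% were lower in both libraries at 16.8 mM than in both at 2.8 mM. No test of the sums was run. For the small subunit the sums were 695 and 630 against 552 and 506 RPM, and for the large subunit 1026 and 910 against 872 and 804. Bulk islet RNA cannot show whether such a value comes from fewer cells of a type or from less RNA per cell.

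Markers of the islet cell types and of other pancreatic cells were summed in each library. The summed RPKM of 5 beta cell genes (*Ins1*, *Ins2*, *Iapp*, *Mafa*, *Ucn3*) was 20550 to 22890 at 2.8 mM and 40930 to 43700 at 16.8 mM. That of 4 alpha cell genes was 1664 to 2170 and 1484 to 2112, and that of 5 acinar genes 31.1 to 90.4 and 77.7 to 155.6. The sum of the delta cell genes *Sst* and *Hhex* was 440.6 to 588.9 and 687.1 to 693.3, that of *Ppy* 728.6 to 959.9 and 825.9 to 1138, and that of 2 ductal genes 1.36 to 4.09 and 4.42 to 7.84. Sums of endothelial, leukocyte and stromal genes stayed under 10 RPKM in every library, and none of the markers was at 0. The part of the beta, delta, acinar and ductal genes in the values of the mitochondrial ribosomal protein genes was not tested.

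The deposited level followed the genomic span. *Mrpl53*, a protein near the base of the stalk, led with 19.2 and 16.2 RPKM at 2.8 mM and 17.5 and 16 RPKM at 16.8 mM over a span of 845 bases. *Mrps34* had 18.9 and 17.6 RPKM against 15.7 and 14.4 RPKM over 1174 bases, and *Mrpl36* 17.3 and 14.8 RPKM against 15.5 and 14.3 RPKM over 1167 bases. *Mrpl24*, at the exit tunnel, followed with 13.9 and 12.9 RPKM against 11.2 and 10.3 RPKM, ahead of *Mrps26*. In *Mrpl53* and *Mrpl36* the groups overlapped, and none but *Mrps26* passed the test (adjusted p = 0.707, 0.126, 0.585 and 0.0826). At the other end were *Mrps27* with a mean of 0.203 RPKM over 70776 bases, *Mrps6* over 53958, *Mrps35* over 28140, *Mrps9* over 54450 and *Mrpl1* over 57235 bases. The median span was 5384 bases in the 61 tested genes and 22388 bases in the 16 genes under 1 RPKM, where exons made up a median of 7.13% of the span against 24.9%.

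Scaled to the exons instead of the span, the order changed. *Mrps21* then reached an exon-scaled RPKM of 44.4, *Mrpl52* 42.6, *Mrpl24* 41.0, *Mrpl33* 35.6 and *Mrpl54* 35.4, whereas *Mrpl53* came to 22.7 and *Mrps26* to 11.6. *Mrpl47*, *Mrpl19* and *Mrpl35* were lowest, at 2.32, 2.63 and 2.69. *Mrps28* reached 93.9, but its exons fill only 0.643% of a span of 121773 bases, and any reads from its introns stay in this value. The groups were compared here by the log2 ratio of their means without a pseudocount, and not by the log2 difference of the test. The 2 measures part in long genes of low RPKM. The ratio was -0.37 for *Mrps27* and -0.60 for *Mrps6*, and the difference -0.11 and -0.20. Over the 77 genes this ratio and the log10 span had a Pearson correlation of -0.36 and a Spearman correlation of -0.29. With the exon-scaled level the correlations of the ratio were 0.04 and -0.01. These are descriptions across genes that share the same 4 libraries.

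**Figure D3:**
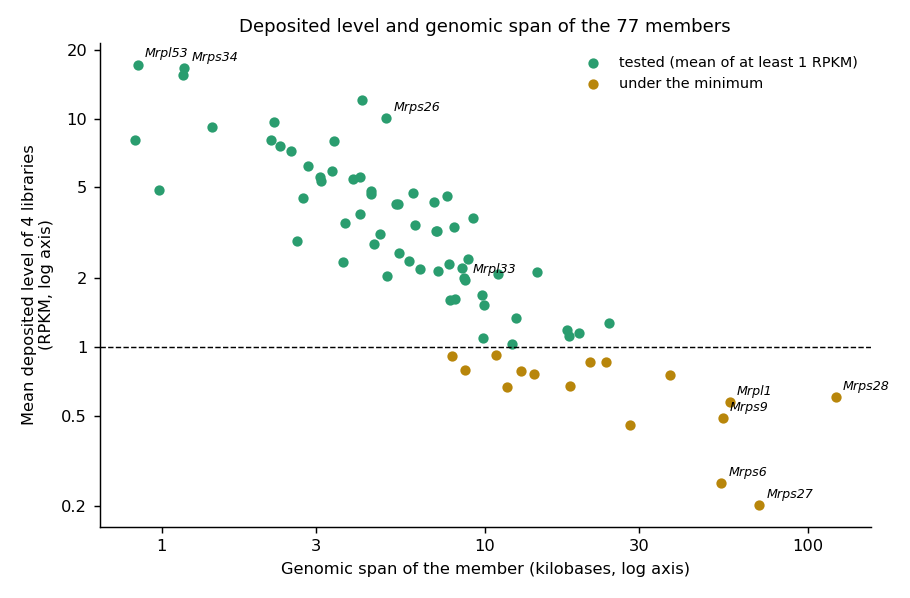
Mean deposited RPKM of the 4 libraries against the genomic span in kilobases, both on log axes, for the 77 genes. The dashed line is the minimum of 1 RPKM. The 61 tested genes (green) have a median span of 5384 bases, and the 16 under the minimum (ochre) one of 22388 bases.

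The 16 genes under the minimum were *Mrps6*, *Mrps9*, *Mrps22*, *Mrps27*, *Mrps28*, *Mrps31*, *Mrps35*, *Mrps36*, *Mrpl1*, *Mrpl13*, *Mrpl22*, *Mrpl35*, *Mrpl42*, *Mrpl45*, *Mrpl47* and *Mrpl48*. *Mrpl35* lay just under the minimum with 0.924 RPKM and *Mrpl14* just above it with 1.03 RPKM. Their libraries held between 329 and 5280 reads. Tested as recovered reads with voom, in a fit of 17249 entries, 8 of the 16 were lower at 16.8 mM and 0 higher, where 29.7% of all entries were lower and 13.6% higher. By the same test 30 of all 77 genes were lower and 1, *Mrpl33*, higher. The shares over all entries include entries with means down to 20 reads. Of the 61 genes averaging 1 RPKM or more, 22 were lower by voom and 1 higher. Of the 6629 transcripts at that level in the voom fit, 2234 were lower and 1019 higher.

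*Mrps9*, in the head of the small subunit, held 1873 and 1641 reads in the libraries at 2.8 mM against 1342 and 1022 in those at 16.8 mM glucose. *Mrpl13*, a core protein of the large subunit, held 1541 and 1145 reads against 1061 and 785, and *Mrps28*, on the platform of the small subunit, 5280 and 4027 against 3939 and 3112. For *Mrps9* and *Mrpl13* the log2 differences in the voom fit were -0.59 ± 0.11 (SE, adjusted p = 0.000143) and -0.55 ± 0.12 (adjusted p = 0.000925), and *Mrps28* had -0.41 ± 0.10 (adjusted p = 0.00204). *Mrps27*, a protein with pentatricopeptide repeats, held 958 and 831 reads against 760 and 640 (-0.37 ± 0.12, adjusted p = 0.0159). *Mrps35* held 855 and 757 reads against 721 and 500 (-0.43 ± 0.13, adjusted p = 0.0106), and *Mrpl1*, a protein of the stalk through which spent transfer RNA leaves, 2298 and 1709 against 1836 and 1440 (-0.30 ± 0.11, adjusted p = 0.0316). The eighth was *Mrpl48* of the central protuberance (-0.40 ± 0.11, adjusted p = 0.00512). *Mrps36* held 418 and 336 reads against 441 and 344, and *Mrps22* 627 and 475 against 664 and 498. Neither passed the voom test (adjusted p = 0.828 and 0.729).

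**Figure D4:**
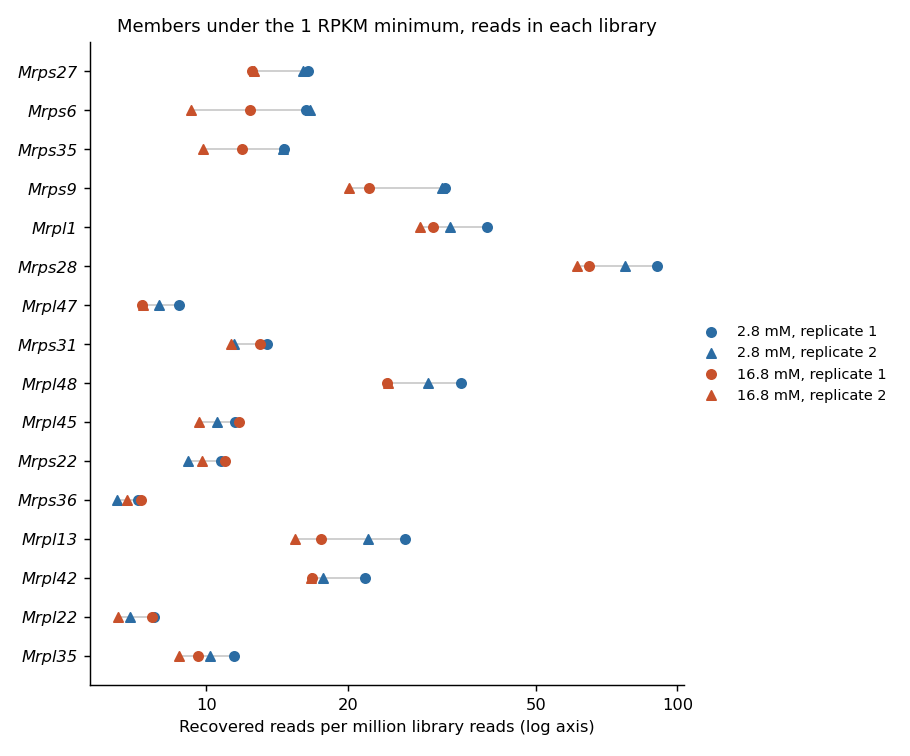
Recovered reads scaled to library depth (RPM) of the 16 genes under 1 RPKM in each of the 4 libraries, on a log axis. Symbols and colours mark replicate and glucose concentration. In Mrps9, Mrps27 and Mrpl13 both libraries at 16.8 mM lie below both at 2.8 mM, and in Mrps22 and Mrps36 the groups overlap.

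Reads of neighbouring genes may enter some of these values, since the use of strand by the counting is not given in the sources used here. Exons of another gene lie within the span of 24 of the 77 genes. The gene *Slc5a3*, a transporter of myo-inositol, lies whole inside the span of *Mrps6*. *Mrps6* had 0.301 and 0.307 RPKM at 2.8 mM and 0.23 and 0.172 RPKM at 16.8 mM, and 949, 861, 752 and 472 reads in that order. The reads of *Slc5a3* numbered 598, 550, 484 and 319, which is 63.0%, 63.8%, 64.3% and 67.5% of those given to *Mrps6*. *Mrps6* was lower at high glucose by voom (log2 difference -0.60 ± 0.14, adjusted p = 0.00121). If all reads of *Slc5a3* are counted with *Mrps6*, the remainder came to 351 and 311 reads at 2.8 mM and 268 and 153 at 16.8 mM, or 6.01 and 5.99 RPM against 4.42 and 3.01 RPM. The remainder was thus also lower in both libraries at high glucose, and it was not tested. Exons of *Ccdc142* cover 75.7% of the span of *Mrpl53*, and exons of *Mapk8ip3*, on the opposite strand, 60.9% of that of *Mrps34*. Among the genes that fell, noncoding *Gm16279* covers 30.6% of *Mrps18b*, *Nr2c2* 24.4% of *Mrps25* and noncoding *Gm16755* 20.9% of *Mrpl12*. Of the 19 tested genes with such exons 6 fell (31.6%), and of the 42 without them 9 fell (21.4%) and 1 rose, against 22.8% lower and 10.7% higher of all tested transcripts.

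A coding gene that starts within 1000 bases and runs the other way was found for 21 of the 77 genes, or 27.3%. Among the 61 with a mean of at least 1 RPKM it was found for 20, against 748 of 5719 coding genes at that level, or 13.1%. Of the 20 of them that were tested 3 fell (15%), with a median log2 difference of -0.08, and of the 41 others 12 fell (29.3%) and 1 rose, with a median of -0.21. Both shares stand beside 22.8% lower and a median of -0.11 over all tested transcripts. *Mrpl46* and *Mrps11* form such a pair with each other, and the stretch between their RefSeq starts is the last sequence shown above. *Mrpl46* had 1.85 and 1.67 RPKM at 2.8 mM and 1.5 and 1.39 RPKM at 16.8 mM, and *Mrps11* 1.14 and 1 RPKM against 1.09 and 1.15 RPKM. The groups of *Mrpl46* did not overlap and those of *Mrps11* did, and neither passed the test (adjusted p = 0.0908 and 0.67).

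Other pairs had different values on their 2 sides. *Mrps18b* fell, while *Ppp1r10*, a regulatory subunit of protein phosphatase that starts 177 bases away, had 1.62 and 1.75 RPKM at 2.8 mM and 3.93 and 3.67 RPKM at 16.8 mM (log2 difference 0.98, adjusted p = 0.000619). *Mrpl43* had 9.91 and 9.07 RPKM against 9.39 and 8.46 RPKM and did not pass the test (-0.08 ± 0.12, adjusted p = 0.602). *Peo1*, the mitochondrial DNA helicase that starts 116 bases from *Mrpl43* and overlaps it, fell from 2.15 and 2.04 to 1.3 and 1.15 RPKM (log2 difference -0.59, adjusted p = 0.00327). *Mrps5* and its neighbour *Zfp661*, 128 bases away, were both lower at 16.8 mM, the latter with 1.01 and 1.07 against 0.578 and 0.614 RPKM and no test, being under the minimum. The difference between the members of a pair was not tested.

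The other genes of mitochondrial protein synthesis were read from the same fit. Of 62 genes for ribosomal proteins of other names, translation factors, assembly, rRNA modification and transfer RNA charging, 31 were tested, of which 12 fell (38.7%) and 1 rose (3.23%), with a median log2 difference of -0.26. Over all tested transcripts 22.8% fell and 10.7% rose, with a median of -0.11. Without replicate 1 at 2.8 mM, and likewise without replicate 2 at 16.8 mM, 6 of them were lower, and the single call towards higher values was lost without any 1 of replicate 2 at 2.8 mM, replicate 1 at 16.8 mM and replicate 2 at 16.8 mM. With voom on recovered reads 30 of 61 were lower and 1 higher, where 29.7% of all entries were lower and 13.6% higher. Among ribosomal proteins of other names *Chchd1*, of the small subunit, fell (-0.58 ± 0.12, adjusted p = 0.0133), as did *Ict1*, a peptidyl-tRNA hydrolase built into the large subunit (-0.29 ± 0.09, adjusted p = 0.0456), while *Dap3*, *Gadd45gip1* and *Aurkaip1* did not pass the test.

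Of 8 tested translation factors *Oxa1l*, which inserts new chains into the inner membrane, and the elongation factor *Guf1* fell (-0.44 ± 0.09 and -0.26 ± 0.08, adjusted p = 0.00965 and 0.0446). *Tufm*, which brings charged transfer RNA to the ribosome, rose from 3.93 and 3.44 RPKM to 4.75 and 4.76 RPKM (0.33 ± 0.10, adjusted p = 0.0456). Of 11 tested genes of assembly and rRNA modification 5 fell and 0 rose, namely *Mpv17l2* (-0.54), *Mtg1* (-0.50), *Ngrn* (-0.46), *Mrm1* (-0.42) and *Eral1* (-0.28). Of 7 tested genes of transfer RNA charging the synthetases *Mars2* (-0.41), *Tars2* (-0.34) and *Pars2* (-0.32) fell. *Mars2*, with means of 1.49 and 0.992 RPKM at 2.8 and 16.8 mM, and *Pars2*, with 1.17 and 0.835 RPKM, entered the test only through the group where they were high. By voom both were lower as well (adjusted p = 0.0175 and 0.0322). Among 7 tested genes of mitochondrial transcription and messages *Tfam*, which packages mitochondrial DNA and activates its transcription, fell (-0.32 ± 0.09, adjusted p = 0.0325). The shares that fell were 25% for translation factors, 45.5% for assembly and rRNA modification, 42.9% for charging and 14.3% for transcription and messages. Over all tested transcripts 22.8% fell and 10.7% rose, and no test of these small lists was run.

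Of 11 tested chaperones and proteases of the mitochondrial matrix and inner membrane 5 fell and 0 rose, against 22.8% and 10.7% of all tested transcripts, each with a log2 difference beyond that of *Mrps26*. *Hspa9*, the import motor, had 32.8 and 31.9 RPKM at 2.8 mM and 15.3 and 13.5 RPKM at 16.8 mM (-1.15 ± 0.13, adjusted p = 0.00117). *Hspd1*, *Hspe1*, *Lonp1* and *Clpp* had log2 differences of -0.99, -0.95, -0.95 and -0.60. The other 6 tested genes of this list had differences between -0.23 and 0.18 that did not pass by limma. By voom 7 of all 12 genes of the list were lower and 1 was higher, where 29.7% and 13.6% of all entries were. The gene higher by voom was *Spg7* (0.27 ± 0.10, adjusted p = 0.0359).

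**Figure D5:**
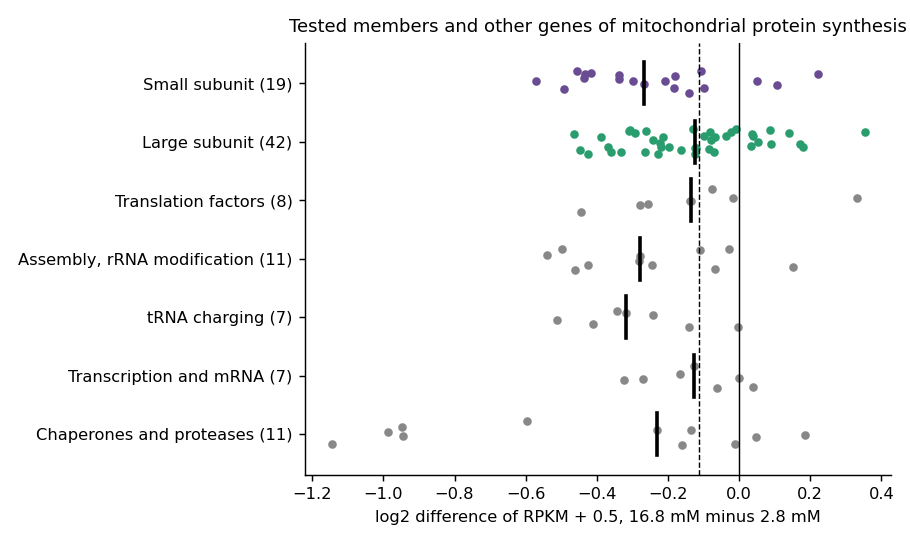
Log2 difference of RPKM + 0.5 between 16.8 mM and 2.8 mM glucose for the tested genes of the 2 ribosomal subunits and of 5 lists of mitochondrial protein synthesis, with the number of genes in brackets. Points are genes, thick bars medians, the solid line 0 and the dashed line the median of all tested transcripts (-0.11). The median is -0.27 for the small and -0.12 for the large subunit, and the 4 chaperone and protease genes furthest to the left lie between -1.15 and -0.95.

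Among regulators known to act on nuclear genes for mitochondrial proteins, *Myc* fell from 3.51 and 3.24 RPKM to 1.04 and 0.933 RPKM (-1.38 ± 0.09, adjusted p = 0.000164). Its mean at 16.8 mM was under the minimum, at 0.987 RPKM, and by voom its log2 difference was -1.77 (adjusted p = 4.07e-09). *Nrf1*, under the minimum, had 0.484 and 0.466 RPKM at 2.8 mM and 0.228 and 0.22 RPKM at 16.8 mM, and was lower by voom (-1.08 ± 0.10, adjusted p = 3.1e-08). *Gabpa* (-0.21), *Pprc1* (-0.19), *Yy1* (-0.06), *Hcfc1* (-0.02) and *Esrra* (0.07) did not pass the test, with adjusted p values between 0.0873 and 0.896, and scaling to a common median turned the signs of *Yy1* and *Hcfc1*. The means of *Gabpa* were 1.12 RPKM at 2.8 mM and 0.905 RPKM at 16.8 mM. *Gabpa* thus entered the limma test only through the group where it was high. *Ppargc1a* and *Ppargc1b* were at or under 0.0572 RPKM in every library, and *Gabpb1* at 0.401 to 0.439 RPKM. By voom 3 of the 10 regulators were lower, *Myc*, *Nrf1* and *Gabpa* (-0.31 ± 0.11, adjusted p = 0.0233), and 1 was higher, *Ppargc1a* (0.70 ± 0.22, adjusted p = 0.0126), against 29.7% and 13.6% of all entries.

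The cytosolic ribosome and the respiratory chain, which mitochondrial translation supplies, were read from the same fit. Of 80 tested cytosolic ribosomal protein genes 9 fell (11.2%) and 0 rose, with a median log2 difference of -0.30, and by voom 45 of 80 were lower and 0 higher. Of 76 tested subunits of the respiratory chain and ATP synthase encoded in the nucleus 4 fell (5.26%) and 9 rose (11.8%), with a median of 0.09, and by voom 10 of 79 were lower and 20 higher. Of all tested transcripts 22.8% fell and 10.7% rose by limma, with a median of -0.11, and by voom 29.7% and 13.6% of all entries. All of these values come from the same 4 libraries, and the differences between the sets were not tested.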

How the data were processed

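Islet RNA was made into TruSeq v2 libraries by the authors, and the notes of the submitters name mm9, STAR, bedtools and DESeq. The methods describe bedtools counts on RefSeq exons for the alpha and beta cell libraries. Strand use in counting is not given in the sources used here. The deposited table holds RPKM for 4 libraries, which the authors scaled to the genomic span of a transcript, and no counts, so limma took the place of a count test. All its columns of values were used.

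Identical rows of a gene were used once (28047 of 33923 entries remained). Values were taken to log2(RPKM + 0.5), and limma 3.58.1 (R 4.3.3, variance trend) was fitted to the 7867 entries averaging 1 RPKM or more, with Benjamini-Hochberg adjustment over all of them at 0.05. Depth was recovered from the steps of the values, and reads from RPKM, span and depth. Spans, exons and overlaps came from the GENCODE annotation of mm9 and promoter sequences from RefSeq in GRCm38.p6, and coordinates of the builds were not mixed. Voom used entries with a mean of at least 20 reads. Other steps used Python 3.11.15, pandas 2.3.3, numpy 2.4.6 and matplotlib 3.10.9.

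The genes and lists were chosen with earlier results of these data known. Values in every library were given for the 10 largest changes past the threshold in each direction, the 5 highest and 5 lowest genes, the *Mrps18* genes, *Mrps6* and genes overlapping another that changed. From the lists at most 5 genes a direction were named, and any regulator. Genes paired by their start sites and further genes just outside the threshold or under the minimum were named after their values were seen.

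Alternatives were other pseudocounts (0.1 and 1), no minimum or 1 RPKM in every library, quantile normalization, median centring, no variance trend, a replicate block, voom with and without it, a threshold of 0.01 and leaving out each library in turn.

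Limma was tested on simulated data with 200 changed transcripts of 7867. It recovered 100% of log2 changes of 1 and 57% of changes of 0.3. Of its calls 5.42% were on unchanged transcripts, and 0 calls were made when none was changed. The simulated noise was independent between transcripts and libraries. Shifts shared by the transcripts of a library, such as the gaps between replicates given above, were not simulated. These figures therefore do not give the power or the error of the test on the real libraries. Each group has 2 libraries of between 50780000 and 60660000 reads, and the effect of their number and of their depth on the precision was not compared.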

Additional observations from a re-analysis of the deposited data

How the results depend on the processing

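The numbers of genes past the threshold moved with the processing, while the median log2 difference of the mitochondrial ribosomal protein genes stayed below 0 under every alternative run. For 15 lower and 1 higher as reported, quantile normalization gave 5 higher and median centring 6, no minimum gave 6 lower over all 77 genes, voom on recovered reads gave 30 lower, and a threshold of 0.01 gave 1 lower and 0 higher. Leaving out a library gave 2 to 16 lower and 0 to 1 higher. The median of -0.18 became -0.10 with quantile normalization (-0.101) and with median centring (-0.0953), and -0.249 to -0.114 without a library. Over all transcripts, for 1790 lower and 838 higher, quantile normalization gave 1576 higher, median centring 1662, voom 5128 lower and 2348 higher, a threshold of 0.01 gave 761 and 430, and leaving out a library 1059 to 1865 and 714 to 904. For the 62 other genes of mitochondrial translation, with 12 lower and 1 higher, no minimum gave 0 higher, voom 30 lower, a threshold of 0.01 gave 3 and 0, and leaving out a library 6 to 11 and 0 to 1. Small differences turned sign in *Mrpl36* (-0.203 to 0.00783 without a library), *Mrpl53* (0.0129 with median centring, -0.189 to 0.0462 without a library), *Yy1* (0.0295 with quantile normalization, 0.0249 with median centring), *Hcfc1* (0.0596 and 0.0673 with the same, -0.0611 to 0.0276 without a library) and *Esrra* (-0.0441 to 0.174 without a library). Pseudocounts of 0.1 and 1 kept all 16 calls. Where a library was left out, the lone library of its group was assumed to vary like the other group. The cause of these moves was not tested.

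The libraries share only a replicate number, and the deviations of libraries with the same number correlated at 0.31 over all tested transcripts. With the replicate block 31 of the 61 tested genes were lower and 3 higher, beside 2835 lower and 1232 higher of all 7867 transcripts. Of the 31 tested other genes of mitochondrial translation 19 were lower and 1 higher. Voom with the replicate block gave 42 lower and 3 higher of the 77 genes, beside 6940 lower and 3243 higher of all 17249 entries. It gave 40 lower and 2 higher of the 61 other genes in that fit. All 16 calls were kept in both fits with the block. *Gabpa* was past the threshold with the replicate block, with voom and with both. It entered the limma fit with the block only through the group where it was high, so that call depends on the minimum.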
